A study of Mus musculus with 18 samples.

Results

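Adipose tissue keeps a pool of fibroblast-like progenitor cells beside its fat-filled adipocytes, and these cells are told apart by the proteins on their surface. The transcripts of 10 markers of these cells, called surface markers here (*Pdgfra*, *Pdgfrb*, *Dpp4*, *Pi16*, *Ly6a*, *Cd34*, *Thy1*, *Cd55*, *Cd248* and *Anxa3*), were followed through weight loss and weight regain in mouse perigonadal fat. They were picked by gene symbol as known markers of these cells, with earlier results of these data already known, and all 10 were among the 16272 genes tested. In activity-based anorexia, 8 of the 10 were lower than in fed controls, beside 25.4% of all tested genes. *Dpp4* was higher, beside 20.9% of all tested genes, and *Pdgfra* was not called. Against the anorexia state, weight-restored fat had higher *Pdgfrb*, *Pi16*, *Ly6a*, *Cd34*, *Thy1*, *Cd55*, *Cd248* and *Anxa3* and lower *Pdgfra*. Of all tested genes, 25.0% were higher and 20.9% were lower in that comparison. Against controls, weight-restored fat had higher *Thy1* and lower *Pdgfra*, both near the threshold and lost under every stricter rule tried. The share of all tested genes called between these groups was 7.21%.

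Adipose progenitors are stromal cells around the vessels and in the connective tissue septa that can divide and turn into new adipocytes. A widely used scheme, built on mouse and human fat, places DPP4+ PI16+ interstitial progenitors, which lie in the fibrous interstitium, upstream of ICAM1+ committed preadipocytes and of CD142+ stromal cells. Flow cytometry commonly isolates the whole pool as cells that carry PDGFRα, CD34 and SCA-1 (the product of *Ly6a*) and lack endothelial and blood markers. No marker is exclusive to the pool. *Pdgfrb* is also made by pericytes, the contractile cells that wrap capillaries, *Cd34* and *Ly6a* by endothelial cells, and *Thy1* by T cells.

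The tissue came from 18 female C57BL/6J mice (C57b/6J wild-type in the labels), 6 in each of 3 groups, with 1 library per mouse according to the labels. Every mouse was singly housed with a running wheel. Control mice (CON) ate ad libitum, and mice with activity-based anorexia (ABA) were given food for a progressively shorter window each day until they had lost a set share of their body weight, when they were killed. Weight-restored mice (WR) went through the same weight loss and were then fed ad libitum until their weight had returned and held. The methods describe CON mice as killed at the time of a yoked ABA mouse, while WR mice were killed later. Age and time with the wheel therefore cannot be told apart from weight history in WR against CON, or from refeeding in WR against ABA. The deposited values are per-gene comparisons of bulk RNA, so the depth of each library and the values of single mice were not analysed here, and the number of reads behind a value is unknown. As a check of the tissue, the average level of 10 adipocyte markers had a median of 10.96 on the log2 CPM scale, in which CPM is the read count of a gene scaled to the size of its library, against 3.83 over all tested genes. Genes are called higher or lower where the adjusted p of the authors' limma fit was under 0.05, and log2 in brackets stands for the log2 fold change.

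The start sites of *Pdgfra*, *Dpp4* and *Pi16* are shown because the first of these was not called in ABA, the second was higher and the third was among the members that were lower. Each sequence covers 250 bases before and 50 bases after the RefSeq start site on GRCm38.p6, read 5′ to 3′ on the strand of the gene, at chr5:75152001-75152300 (plus strand) for *Pdgfra*, chr2:62412182-62412481 (minus strand) for *Dpp4* and chr17:29318632-29318931 (plus strand) for *Pi16*. RefSeq windows were used for 5 of the 10 members, these and *Cd34* and *Cd55*. *Pdgfrb* was left out when the windows were selected, so the lack of a window for it is not a failed match. Capitals mark matches to the motifs searched.
Pdgfra: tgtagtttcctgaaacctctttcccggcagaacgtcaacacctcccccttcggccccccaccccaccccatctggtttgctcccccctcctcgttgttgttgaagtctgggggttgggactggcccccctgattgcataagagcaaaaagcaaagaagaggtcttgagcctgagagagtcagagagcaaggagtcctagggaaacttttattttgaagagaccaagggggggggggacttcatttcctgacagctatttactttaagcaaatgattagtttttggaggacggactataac
Dpp4: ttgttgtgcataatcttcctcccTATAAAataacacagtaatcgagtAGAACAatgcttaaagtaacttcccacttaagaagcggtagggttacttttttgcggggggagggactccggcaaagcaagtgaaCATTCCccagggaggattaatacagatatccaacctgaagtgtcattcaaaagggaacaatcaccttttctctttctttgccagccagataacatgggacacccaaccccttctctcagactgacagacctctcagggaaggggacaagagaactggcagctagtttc
Pi16: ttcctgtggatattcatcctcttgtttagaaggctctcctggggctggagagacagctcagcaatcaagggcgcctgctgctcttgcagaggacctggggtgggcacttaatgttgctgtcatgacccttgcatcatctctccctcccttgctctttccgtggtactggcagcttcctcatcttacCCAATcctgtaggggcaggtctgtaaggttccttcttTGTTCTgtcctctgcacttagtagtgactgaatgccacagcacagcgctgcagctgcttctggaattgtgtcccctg

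The motifs were searched on both strands, and no match overlapped another. They were the TATA box spelled TATAAA, which 13.6% of 32851 promoters of the same length hold, the CCAAT box spelled CCAAT in 37.4%, the GC box spelled GGGCGG in 35.7%, a TEAD site spelled GGAATG in 14.7%, an AP-1 site spelled TGANTCA in 7.81%, a FoxO site spelled GTAAACA in 3.65%, and the core of a glucocorticoid response element spelled AGAACA in 19.0%. Counted from the start site, the *Dpp4* window held the TATA letters from base -227, the glucocorticoid core from -203 and the TEAD letters on the other strand from -118. In the *Pi16* window the CCAAT letters began at -64 and the glucocorticoid core, on the other strand, at -27. The *Pdgfra* and *Cd34* windows held no match, and the *Cd55* window held the GC box letters on the other strand at -77 and -7. The GC content was 51.0% for *Pdgfra*, 45.3% for *Dpp4*, 53.3% for *Pi16*, 50.0% for *Cd34* and 63.3% for *Cd55*, with a median of 52.7% over all promoters. These are matches of letters and say nothing of binding.

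**Figure D1:**
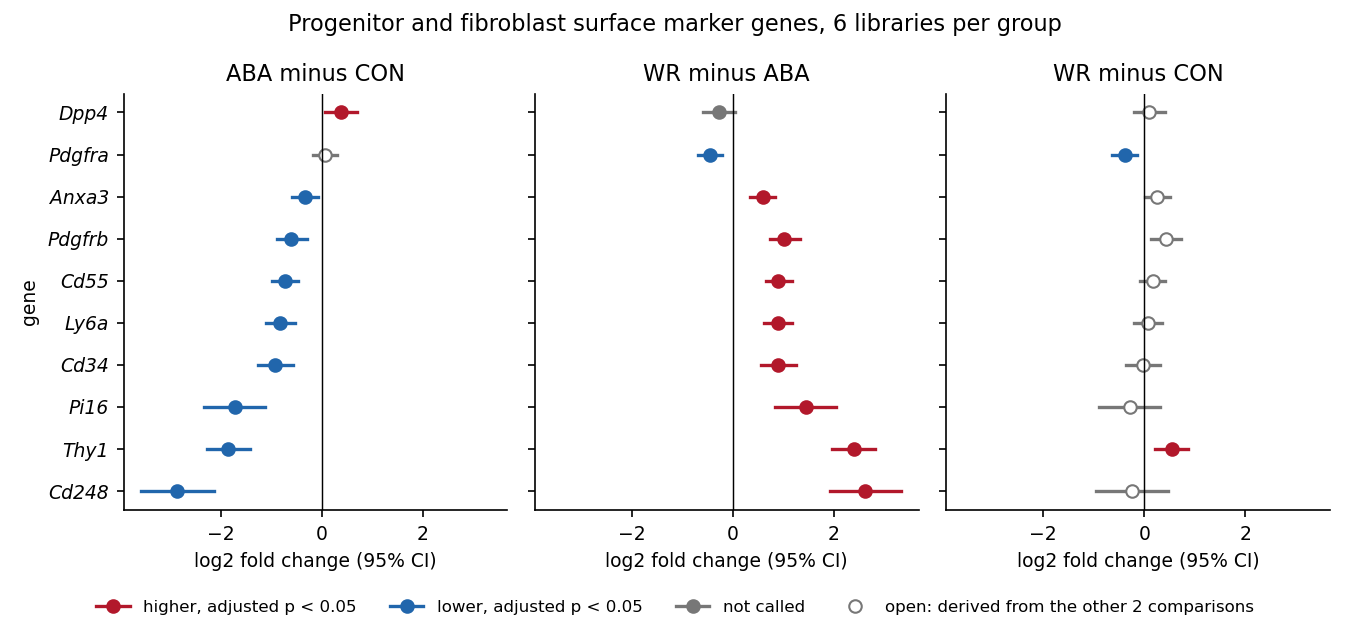
Log2 fold change of the 10 surface marker genes in ABA minus CON, WR minus ABA and WR minus CON. Points are fold changes of the limma fit over 6 libraries per group, bars are 95% confidence intervals, and open points were derived from the other comparisons. In ABA minus CON 8 genes lie left of 0 with *Cd248* at -2.86, and in WR minus ABA *Cd248* lies at 2.62 and *Pdgfra* at -0.46.

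In ABA against CON, 8 of the 10 genes were lower, where 25.4% of all tested genes were lower, and 1 of 10 was higher, where 20.9% were. In either direction 9 of 10 were called, beside 46.3% of all genes. The log2 fold changes of the members that were lower ran from -2.86 for *Cd248* to -0.33 for *Anxa3*. Across the 10 genes the SE of the ABA minus CON log2 fold change ran from 0.11 to 0.34. In bulk tissue, fewer cells of a type and less RNA per cell cannot be told apart.

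Of the receptors for platelet-derived growth factor (PDGF), *Pdgfrb* was lower in ABA and *Pdgfra* was not called, a difference that was not itself tested. *Pdgfra* encodes PDGFRα, the tyrosine kinase receptor that marks most adipose progenitors. It had an average level of 7.21 on the log2 CPM scale and approximate group levels of 159 CPM in CON, 166 CPM in ABA and 121 CPM in WR. The CON and ABA levels lay close together, and WR was the low group. The derived ABA minus CON value was 0.07 (log2, SE 0.11, 95% confidence interval -0.17 to 0.30), so a fall of more than 0.17 or a rise of more than 0.30 lay outside the interval. *Pdgfra* was 1.37-fold lower in WR than in ABA (log2 -0.46, SE 0.11, adjusted p = 0.00288). It was 1.31-fold lower in WR than in CON (log2 -0.39, SE 0.11, 95% confidence interval -0.63 to -0.15, adjusted p = 0.0443), a limma call lost under the stricter Benjamini-Yekutieli adjustment (adjusted p = 0.456) and at an adjusted p under 0.01. *Pdgfra* (ENSMUSG00000029231) lies on chromosome 5 of GRCm38 from 75152292 to 75198215 on the plus strand, with 9 annotated transcripts.

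*Pdgfrb* encodes PDGFRβ, the receptor that pericytes and a share of adipose progenitors carry. Its approximate levels were 62.6 CPM in CON, 41.4 CPM in ABA and 84.0 CPM in WR, with ABA the low group and WR the high one. It was 1.51-fold below CON in ABA (log2 -0.60, SE 0.14, adjusted p = 0.00215). From ABA to WR it was 2.03-fold higher (log2 1.02, SE 0.14, adjusted p = 1.64e-05). Against CON the derived value in WR was 0.43 (log2, SE 0.14, 95% confidence interval 0.13 to 0.72). That interval lies above 0, but the t of 3.03 falls short of the smallest t of 3.33 listed in this comparison, and the gene was not called. *Pdgfrb* (ENSMUSG00000024620) lies on chromosome 18 from 61045150 to 61085061 on the plus strand.

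Among all tested genes, 25.4% were lower and 20.9% higher in ABA than in CON, and WR against ABA had 25.0% higher and 20.9% lower. Of the 4 PDGF ligands, *Pdgfa* and *Pdgfc* were lower in ABA than in CON, and *Pdgfa*, *Pdgfb* and *Pdgfc* were higher in WR than in ABA. *Pdgfa*, whose product binds PDGFRα, was 1.62-fold lower in ABA (log2 -0.70, SE 0.12, adjusted p = 0.000168) and 1.50-fold above ABA in WR. *Pdgfc*, another ligand of PDGFRα, was 1.43-fold lower in ABA (log2 -0.51, SE 0.12, adjusted p = 0.00162). *Pdgfb*, the ligand by which endothelium recruits pericytes through PDGFRβ, was not listed for ABA against CON and was 1.79-fold above ABA in WR (log2 0.84, SE 0.25, adjusted p = 0.0107). Under the Benjamini-Yekutieli adjustment of the limma p-values, the WR minus ABA calls of *Pdgfb* and *Pdgfc* were lost (adjusted p = 0.11 and 0.0614). None of the 4 ligands was called between WR and CON.

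Among the markers of interstitial progenitors, *Dpp4* was the one that was higher in ABA. *Dpp4* encodes dipeptidyl peptidase 4 (CD26), a surface protease that cleaves peptide hormones such as GLP-1. Its approximate levels were 65.5 CPM in CON, 85.6 CPM in ABA and 70.4 CPM in WR, so ABA was the high group. It was 1.31-fold above CON in ABA (log2 0.39, SE 0.15, 95% confidence interval 0.07 to 0.70, adjusted p = 0.0432). This call was near the threshold and ended under the stricter Benjamini-Yekutieli adjustment of the limma p-values (adjusted p = 0.444). The WR minus ABA value was -0.28 (log2, SE 0.15, 95% confidence interval -0.60 to 0.03, adjusted p = 0.135), and the derived WR minus CON value was 0.10 (95% confidence interval -0.21 to 0.42). *Dpp4* (ENSMUSG00000035000) lies on chromosome 2 from 62330073 to 62412231 on the minus strand.

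*Pi16* encodes peptidase inhibitor 16, a membrane-anchored glycoprotein that marks fibroblasts of the adventitia and the interstitium. It fell from about 80.6 CPM in CON to 24.4 CPM in ABA and stood at 66.1 CPM in WR, so ABA was the low group by far. The ABA minus CON log2 fold change was -1.72 (SE 0.29, 95% confidence interval -2.33 to -1.12, adjusted p = 0.000122), a 3.30-fold lower level. The WR minus ABA log2 fold change was 1.44 (SE 0.29, 95% confidence interval 0.83 to 2.04, adjusted p = 0.000554), a 2.71-fold higher level. WR minus CON was derived as -0.29 (log2, 95% confidence interval -0.89 to 0.32), an interval wide enough to hold changes of both signs. Its width rests on a derived SE that may be too large. *Pi16* (ENSMUSG00000024011) lies on chromosome 17 from 29317680 to 29330593 on the plus strand, and the RefSeq window shown above begins inside this gene model.

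*Cd55* encodes decay-accelerating factor, a lipid-anchored protein that shields cells from complement and that is used to sort the DPP4+ cells. Its levels were about 95.4 CPM in CON, 57.5 CPM in ABA and 107 CPM in WR. It was 1.66-fold below CON in ABA (log2 -0.73, SE 0.12, adjusted p = 0.000109) and 1.87-fold above ABA in WR (log2 0.90, SE 0.12, adjusted p = 1.26e-05). Derived WR minus CON was 0.17 (95% confidence interval -0.08 to 0.42). *Cd55* (ENSMUSG00000026399) lies on chromosome 1 from 130439027 to 130462744 on the minus strand.

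*Anxa3* encodes annexin A3, a calcium-dependent protein that binds phospholipid membranes, and is counted with the surface markers by the choice of the list. It had the smallest fall of the members that were lower, from about 44.7 CPM in CON to 35.5 CPM in ABA, and reached 53.5 CPM in WR. The ABA minus CON log2 fold change was -0.33 (SE 0.12, 95% confidence interval -0.58 to -0.08, adjusted p = 0.0291), a limma call lost under the Benjamini-Yekutieli adjustment (adjusted p = 0.299). The WR minus ABA log2 fold change was 0.59 (SE 0.12, adjusted p = 0.000553). In WR minus CON the derived value was 0.26 (95% confidence interval 0.01 to 0.51), just above 0 and not called. *Anxa3* (ENSMUSG00000029484) lies on chromosome 5 from 96793339 to 96845966 on the plus strand and overlaps a tested gene model on the same strand (ENSMUSG00000105356, average 2.04 on the log2 CPM scale), so the division of reads between the pair is uncertain.

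The general stem and stromal antigens were all lower in ABA. *Ly6a* encodes SCA-1, a lipid-anchored antigen of stem cells in mice. Its approximate levels were 46.3 CPM in CON, 26.3 CPM in ABA and 48.8 CPM in WR, with CON and WR close together. It was 1.76-fold below CON in ABA (log2 -0.82, SE 0.13, adjusted p = 0.000106) and 1.85-fold above ABA in WR (log2 0.89, SE 0.14, adjusted p = 4.42e-05). The derived WR minus CON value was 0.07 (95% confidence interval -0.21 to 0.36). *Ly6a* (ENSMUSG00000075602) lies on chromosome 15 from 74994877 to 74998031 on the minus strand, in a cluster of similar Ly6 genes, and the counting divides shared reads between such copies by estimate.

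*Cd34* encodes a sialomucin of progenitor and endothelial surfaces. Its approximate levels were 192 CPM in CON, 102 CPM in ABA and 189 CPM in WR, and the level in WR was nearly that in CON. It was 1.89-fold below CON in ABA (log2 -0.92, SE 0.17, adjusted p = 0.000248) and 1.86-fold above ABA in WR (log2 0.89, SE 0.16, adjusted p = 0.000255). Its derived WR minus CON value of -0.02 had a 95% confidence interval of -0.37 to 0.32. *Cd34* (ENSMUSG00000016494) lies on chromosome 1 from 194938819 to 194961279 on the plus strand and overlaps *Gm16897* on the opposite strand (average 1.79 on the log2 CPM scale). The strand setting of the counting is not given in the sources used here.

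*Thy1* encodes CD90, a lipid-anchored glycoprotein of fibroblasts, neurons and mouse T cells. Its levels were about 23.9 CPM in CON, 6.64 CPM in ABA and 34.9 CPM in WR, a low ABA group and WR as the highest of the 3. The ABA minus CON log2 fold change was -1.85 (SE 0.20, 95% confidence interval -2.27 to -1.42, adjusted p = 1.92e-06), a 3.59-fold lower level. In WR it was 5.25-fold higher than in ABA (log2 2.39, SE 0.20, adjusted p = 1.15e-07). *Thy1* was also 1.46-fold higher in WR than in CON (log2 0.55, SE 0.15, 95% confidence interval 0.22 to 0.87, adjusted p = 0.0413), the one rise among the members in this comparison. This limma call too was lost under the Benjamini-Yekutieli adjustment (adjusted p = 0.425) and at an adjusted p under 0.01. Worked back from the SEs of the 3 comparisons, the SE of the group mean was 0.17 in ABA and 0.11 in both CON and WR (log2), so the ABA mean was the least precise in the fit. The fit holds a single residual variance per gene. These SEs thus differ through its weights and do not measure the spread among the ABA mice. *Thy1* (ENSMUSG00000032011) lies on chromosome 9 from 44043384 to 44048579 on the plus strand.

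*Cd248* encodes endosialin, a C-type lectin of fibroblasts and pericytes that binds matrix proteins, and it had the widest swing of the members. It fell from about 180 CPM in CON to 24.8 CPM in ABA and stood at 153 CPM in WR. The ABA level was 7.26-fold lower than CON (log2 -2.86, SE 0.34, 95% confidence interval -3.58 to -2.14, adjusted p = 4.95e-06). The WR level was 6.16-fold higher than ABA (log2 2.62, SE 0.34, 95% confidence interval 1.92 to 3.33, adjusted p = 8.40e-06). Its derived WR minus CON value was -0.24 with a 95% confidence interval of -0.95 to 0.48, the widest of the members, from a derived SE that may be too large. A rough residual spread, taken as the SE times the square root of 3, was about 0.59 on the log2 scale for *Cd248* and 0.50 for *Pi16*, against 0.20 for *Pdgfra*. This assumes equal weights, while the fit is weighted and its variance moderated, so it is no direct measure of the spread between mice. For *Thy1* it gave 0.35 in ABA minus CON and 0.27 in WR minus CON. *Cd248* (ENSMUSG00000056481) is a gene with 1 annotated transcript on chromosome 19 from 5068078 to 5070682 on the plus strand.

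**Figure D2:**
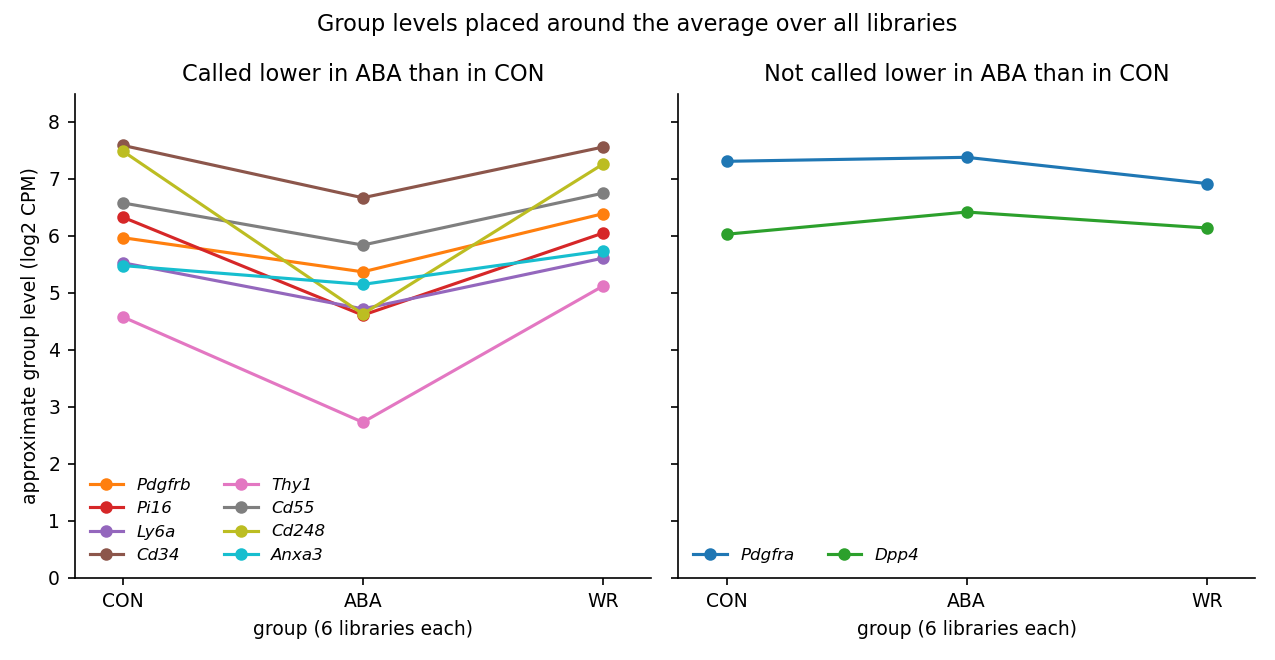
Approximate group levels (log2 CPM, from 0) of the 10 genes in CON, ABA and WR, 6 libraries each. The group levels were placed around the average over all libraries with the fold changes, so no error bars are drawn. The 8 genes called lower in ABA dip at ABA, with *Thy1* at 2.73 and *Cd248* at 4.63, while *Pdgfra* and *Dpp4* do not.

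In WR against ABA, 8 of the 10 genes were higher, where 25.0% of all tested genes were higher, and 1 was lower, where 20.9% were. In either direction 9 of 10 were called, beside 45.9% of all genes. The median WR minus ABA log2 fold change was 0.90 over the 10 genes and 0.01 over all tested genes. *Cd248* stood at the 99.3 percentile of all genes, *Thy1* at 99.0, *Pi16* at 96.4, *Pdgfrb* at 92.6, *Dpp4* at 25.9 and *Pdgfra* at 16.5. ABA minus CON and WR minus ABA share the 6 ABA libraries, so an error in the ABA mean moves both in opposite directions, and the values of the comparisons are given only side by side.

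**Figure D3:**
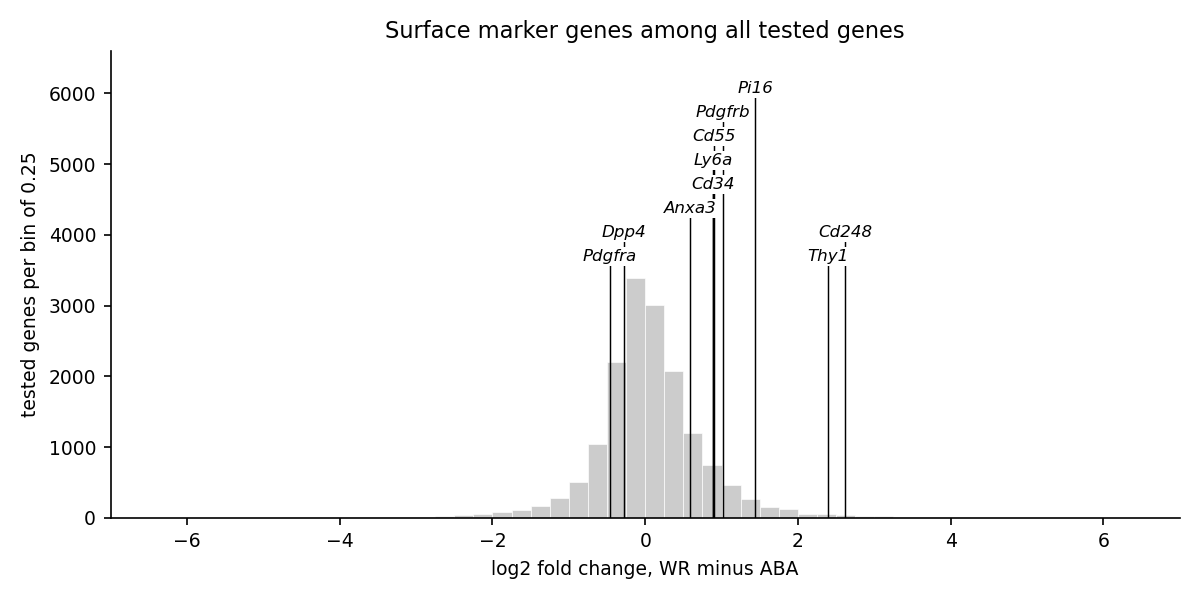
Histogram of the WR minus ABA log2 fold change of all 16272 tested genes in bins of 0.25, with vertical lines at the 10 surface marker genes. *Cd248* (2.62) and *Thy1* (2.39) lie in the right tail, *Pdgfra* (-0.46) and *Dpp4* (-0.28) left of the median of 0.01.

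In WR against CON, 2 of the 10 genes were called, beside 7.21% of all genes, *Thy1* as the 1 that was higher (4.04% of all genes) and *Pdgfra* as the 1 that was lower (3.18%). Over 10 genes, a count this low cannot be read as more than the background. For the other 8 the value was derived, and 6 of those intervals held 0, the exceptions being *Pdgfrb* and *Anxa3*. Their adjusted p in this comparison is known only to have missed 0.05, and an interval that holds 0 does not show that the levels are equal.

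How many members are counted depends on the rule. At an adjusted p under 0.01, 0 were called between WR and CON (0.891% of all genes). When a change of at least 1 on the log2 scale, up or down, was required as well, 3 were lower in ABA (*Pi16*, *Thy1* and *Cd248*, beside 5.94% of all genes), 4 were higher in WR than in ABA (those and *Pdgfrb*, beside 7.28%) and 0 differed between WR and CON (1.03%). Under the Benjamini-Yekutieli adjustment, which allows for any dependence between genes, 7 were lower in ABA (15.4%), 8 were higher in WR than in ABA (15.8%) and 0 were called between WR and CON (0.363%).

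The levels of the members can be compared with each other only roughly, per kilobase of merged exon. That length joins the exons of all annotated transcripts and can exceed that of the transcript made, which lowers the value. It was 2605 bases for *Cd248* with 1 transcript and 10024 bases for *Pdgfra* with 9. On the scale of average log2 CPM per kilobase, *Cd248* stood at 5.08, *Ly6a* at 5.02, *Cd34* at 4.41, *Cd55* at 4.11, *Pdgfra* at 3.88, *Anxa3* at 3.59, *Dpp4* at 3.54, *Pdgfrb* at 3.46, *Pi16* at 2.99 and *Thy1* at 2.56. Neighbours in this order that lie within about 0.1 of each other, such as *Cd248* and *Ly6a* or *Anxa3*, *Dpp4* and *Pdgfrb*, cannot be ranked. Wider gaps may also come from the lengths used, so the order is not a firm ranking. Without regard to length, all 10 were above the 54.9 percentile of tested genes on the average log2 CPM scale, or at it in the case of *Thy1*, with *Cd34* the highest at 94.4.

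The other genes known for DPP4+ PI16+ interstitial progenitors were lower in ABA in 7 of 15 tested cases (25.4% of all genes) and higher in 0 (20.9%), and in WR against ABA 8 were higher (25.0%) and 1 was lower (20.9%). *Ackr3*, a scavenging chemokine receptor, was 2.35-fold lower in ABA (log2 -1.23, SE 0.13, adjusted p = 1.92e-06) and 1.83-fold above ABA in WR. *Efhd1*, which encodes a mitochondrial calcium-binding protein, was 4.24-fold lower in ABA (log2 -2.08, SE 0.23, adjusted p = 2.49e-06). *Fn1*, which encodes the matrix glycoprotein fibronectin, was 2.75-fold lower in ABA (log2 -1.46, SE 0.22, adjusted p = 5.13e-05) and 3.58-fold above ABA in WR. The median WR minus ABA log2 fold change of these 15 genes was 0.33. *Akr1c18*, the remaining gene of this list, was not among the tested genes.

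Of 10 genes known for ICAM1+ committed preadipocytes, 4 were lower in ABA (25.4% of all genes) and 0 were higher (20.9%), and in WR against ABA 6 were higher (25.0%) and 1 was lower (20.9%), with a median of 0.61. *Fabp4* also stands in the adipocyte list. The median average level of the 10 genes was 8.82 on the log2 CPM scale, against 6.05 for the surface markers. The part of adipocytes in these values was not tested. *Col15a1*, a basement membrane collagen, was 15.1-fold lower in ABA (log2 -3.91, SE 0.43, adjusted p = 2.14e-06). *Col4a1*, the main collagen of basement membranes, was 2.18-fold lower in ABA (log2 -1.13, SE 0.16, adjusted p = 2.85e-05) and the one gene of the list that was higher in WR than in CON (log2 0.78, SE 0.18, adjusted p = 0.0160), a limma call lost under the Benjamini-Yekutieli adjustment (adjusted p = 0.164). *Icam1*, the adhesion molecule that names these cells, was 1.65-fold lower in ABA (log2 -0.72, SE 0.14, adjusted p = 0.000319).

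The 8 genes known for CD142+ stromal cells split, with 4 lower (25.4% of all genes) and 3 higher (20.9%) in ABA, and in WR against ABA 3 higher (25.0%) and 3 lower (20.9%), with a median of 0.28. *Fmo2*, a flavin-containing monooxygenase, was 6.28-fold higher in ABA (log2 2.65, SE 0.21, adjusted p = 8.75e-08). *Igfbp3*, a carrier of insulin-like growth factors, was 7.91-fold higher (log2 2.98, SE 0.42, adjusted p = 2.35e-05). *Clec11a*, a secreted C-type lectin, was 3.20-fold lower (log2 -1.68, SE 0.21, adjusted p = 6.15e-06). *Fmo2* and *Igfbp3* were in turn lower in WR than in ABA (log2 fold changes -2.47 and -3.69).

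The transcription factors and matrix genes of adipose fibroblasts were lower in ABA in 13 of 18 cases (25.4% of all genes) and higher in 1 (20.9%), *Dcn*, which encodes the proteoglycan decorin and is named after its value was seen (log2 0.61, SE 0.14, adjusted p = 0.00182). In WR against ABA, 12 of the 18 were higher (25.0%) and 1 was lower (20.9%), with a median of 0.74. *Col3a1* and *Col1a1*, the fibrillar collagens of types III and I, were 11.8-fold and 14.2-fold lower in ABA (log2 fold changes -3.56, SE 0.25, and -3.82, SE 0.29). *Loxl1*, an enzyme that crosslinks elastin, was 4.96-fold lower (log2 -2.31, SE 0.20, adjusted p = 2.07e-07).

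Close relatives of the members, genes of the same or similar protein families, some of which also stand in another list, were lower in ABA in 11 of 27 cases (25.4% of all genes) and higher in 2 (20.9%), and in WR against ABA 12 were higher (25.0%) and 2 lower (20.9%), with a median of 0.34. *Anxa2*, a relative of *Anxa3*, was 3.69-fold lower in ABA (log2 -1.88, SE 0.14, adjusted p = 5.82e-08), and *Anxa6*, another annexin, 2.08-fold lower (log2 -1.06, SE 0.13, adjusted p = 4.92e-06). *Ly6e*, a relative of *Ly6a* found on many cell types, was 2.02-fold lower (log2 -1.02, SE 0.12, adjusted p = 4.26e-06).

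Markers of other cell types, some of which share these surface proteins, were counted in the same way, and their part in the members' values was not tested. Every tested marker had passed the authors' filter on low CPM, and summed levels per group cannot be given from comparison tables. Of 10 blood endothelial markers, whose cells also express *Cd34* and *Ly6a*, 2 were lower in ABA (*Tie1*, log2 fold change -0.57, SE 0.21, adjusted p = 0.0338, and *Tek*, -0.35, SE 0.13, adjusted p = 0.0415), 8 were higher in WR than in ABA (25.0% of all genes) and 6 were higher in WR than in CON (4.04%). The count lower in ABA was no more than the 25.4% of all genes, and the calls of *Tie1* and *Tek* were lost under the Benjamini-Yekutieli adjustment of the limma p-values (adjusted p = 0.348 and 0.427). Both are tyrosine kinase receptors of endothelium. *Cldn5*, the tight junction claudin of endothelium, was 2.56-fold higher in WR than in CON (log2 1.35, SE 0.26, adjusted p = 0.00923), where *Cd34* and *Ly6a* were not called. Under the Benjamini-Yekutieli adjustment of the limma p-values this call ended as well (adjusted p = 0.0948).

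Of 10 markers of pericytes and smooth muscle, which also express *Pdgfrb* and *Cd248*, 5 were lower in ABA (25.4% of all genes), 6 were higher in WR than in ABA (25.0%) and 3 were higher in WR than in CON (4.04%). *Mcam*, an adhesion molecule of vessel walls, was 3.28-fold lower in ABA (log2 -1.71, SE 0.22, adjusted p = 1.12e-05). *Notch3*, the Notch receptor of mural cells, was 2.42-fold lower in ABA (log2 -1.28, SE 0.21, adjusted p = 0.000124) and 1.65-fold higher in WR than in CON. *Cspg4*, which encodes the proteoglycan NG2, was 1.71-fold lower in ABA (log2 -0.78, SE 0.21, adjusted p = 0.00640). The *Notch3* call in WR minus CON and that of *Cspg4* in ABA were lost under the Benjamini-Yekutieli adjustment of the limma p-values (adjusted p = 0.430 and 0.0658).

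Mesothelial cells, which line the surface of this fat depot, were represented by 10 markers, of which 3 were lower in ABA and 3 were higher in WR than in ABA, shares near the 25.4% and 25.0% of all genes, and 1 was higher in WR than in CON (4.04%). These were *Lrrn4* (log2 in ABA minus CON -1.26, SE 0.14), *Msln* (-1.15, SE 0.15) and *Upk3b* (-0.63, SE 0.15), and *Msln*, which encodes mesothelin, was the one higher in WR than in CON (log2 0.81, SE 0.13, adjusted p = 0.00361). Of 10 adipocyte markers, 4 were lower (25.4% of all genes) and 2 higher (20.9%) in ABA, while WR against ABA had 4 higher (25.0%) and 2 lower (20.9%). *Lep*, the leptin gene, whose direction was used to set the common sign of the comparisons, had the largest change of the adipocyte list (log2 -6.48, SE 0.85, adjusted p = 1.11e-05), *Plin4*, a lipid droplet coat protein, was 2.35-fold lower, and *Cfd*, which encodes adipsin, was 1.67-fold lower in ABA and 1.83-fold lower in WR than in CON.

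Of 10 macrophage markers, 7 were lower (25.4% of all genes) and 1 was higher (20.9%) in ABA, and in WR against ABA 9 were higher (25.0%) and 1 was lower (20.9%), with none called between WR and CON. *Mertk*, a receptor for dying cells, was the one higher in ABA (log2 1.45, SE 0.15, adjusted p = 8.81e-07), while *Mrc1*, the mannose receptor, and *Fcgr1*, an Fc receptor, were lower (log2 fold changes -0.90, SE 0.14, and -1.39, SE 0.30). Of 11 T, NK and B cell markers, the cells among which T cells also make *Thy1*, 6 were tested and their median average level was 0.42 on the log2 CPM scale. *Cd3d*, *Cd3g*, *Cd8a*, *Trac* and *Klrb1c* were not among the tested genes. *Cd3e*, a subunit of the T cell receptor complex, was 1.99-fold above CON in ABA (SE 0.37 on the log2 scale, adjusted p = 0.0366) at an average of only 0.67 on the log2 CPM scale, and *Ncr1*, an NK cell receptor, was 2.16-fold lower (log2 -1.11, SE 0.33, adjusted p = 0.0101). Both calls were lost under the Benjamini-Yekutieli adjustment of the limma p-values (adjusted p = 0.376 and 0.104). *Cd4* was not listed for ABA against CON and had a WR minus ABA value of 0.35 (log2, SE 0.52, adjusted p = 0.606).

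**Figure D4:**
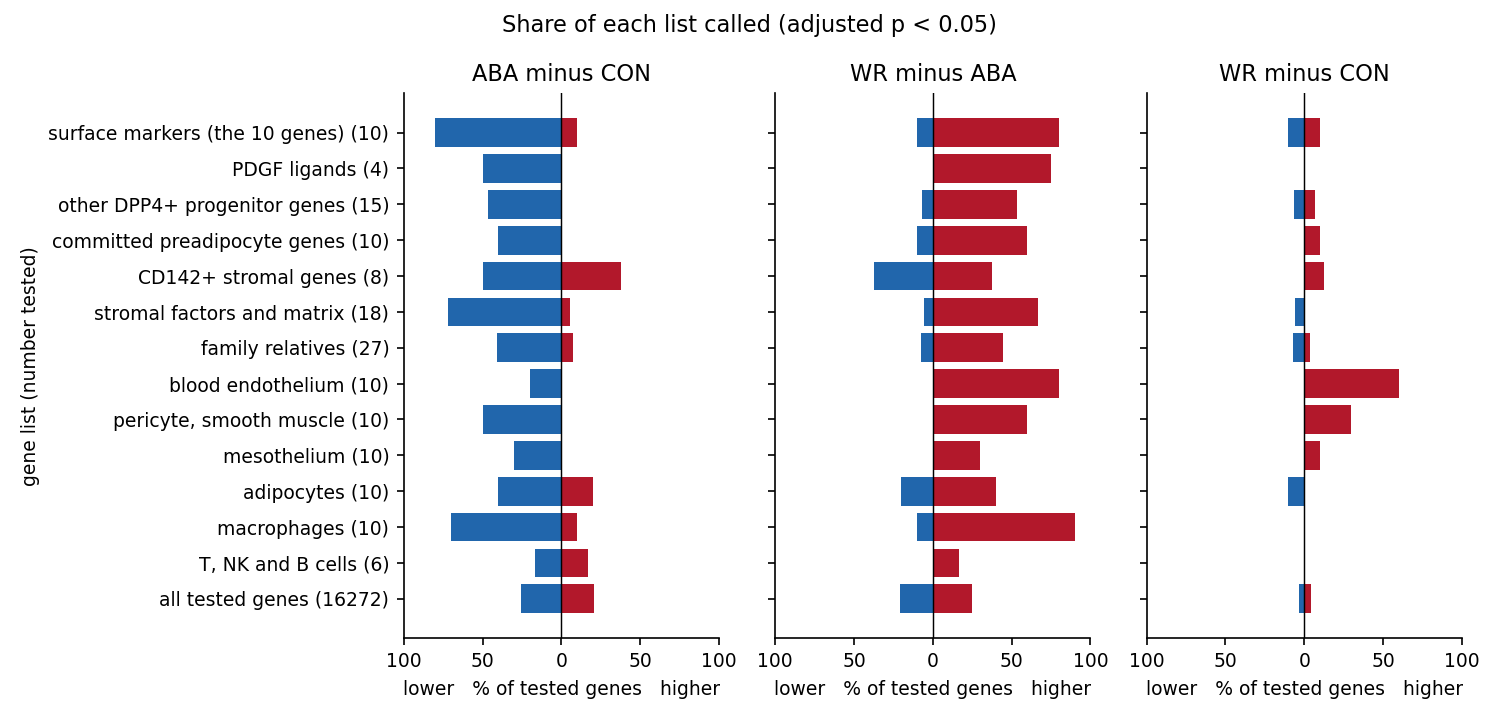
Percentage of the tested genes of each list that were called lower (blue, to the left) and higher (red, to the right) in ABA minus CON, WR minus ABA and WR minus CON, with the number tested in brackets and all 16272 tested genes as the bottom bar. Of the 10 surface markers 8 were lower in ABA, and 6 of 10 endothelial markers were higher in WR than in CON.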

How the data were processed

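Bulk RNA of perigonadal adipose tissue was sequenced from 18 mice. Per the labels and the study's methods, the authors used FastQC 0.11.8 for read quality, Trimmomatic 0.38 for trimming, STAR 2.5.1a for alignment to GRCm38.p6 and RSEM 1.3.0 for gene counts. Their limma-voom model, run after a CPM filter and TMM scaling, held condition alone. The deposited tables hold the authors' comparisons alone: log2 fold changes and average log2 CPM, the moderated t as a score, and p-values, which the authors adjusted by the Benjamini-Hochberg method over 16272 genes. ABA minus CON and WR minus CON list only genes with an adjusted p under 0.05 (7531 and 1174), and WR minus ABA lists all. Per-library values were not analysed here; 0 columns of per-sample values were left unused. The relative signs of the tables were checked by the identity between the comparisons over 602 genes, and the common sign was set so that *Lep*, which falls as fat is lost, is lower in ABA. The direction of *Lep* is therefore no result.

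The SE was computed as the log2 fold change divided by t, and the 95% confidence intervals rest on 18.4 degrees of freedom, which t and p together imply. A member missing from a table counts as not called, its value was derived from the other comparisons, and its SE is the root of the mean of their squared SEs. For 283 genes at the members' levels the median ratio of derived to deposited SE was 0.999 for WR minus CON (0.966 to 1.11 between the 2.5 and 97.5 percentiles) and 1.00 for ABA minus CON (0.942 to 1.05), though 1.30 for *Thy1* in WR minus CON. A derived WR minus CON SE rests on comparisons that both hold ABA, so it may be too large where the ABA mean is imprecise. For members other than *Thy1*, among them *Cd248* and *Pi16*, this could not be checked. Group levels place the average log2 CPM as if the group means were unweighted, and are approximate. P-values set a difference of group means against the moderated residual variance between libraries labelled as separate mice, taken over all 3 groups. Positions are from GENCODE on GRCm38, matched by Ensembl identifier, and promoters from RefSeq.

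The members and the 12 other gene lists were chosen with earlier results of these data known. Named are all members and, from each list, up to 3 genes with the smallest adjusted p in ABA minus CON, or else in WR minus ABA. Alternatives were a stricter p, a minimum fold, the Benjamini-Yekutieli adjustment, protein-coding genes alone, a level filter, median centring and a larger derived SE. Scripts were tested on simulated data (Python 3.11.15, pandas 2.3.3, SciPy 1.17.1, R 4.3.3, limma 3.58.1).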

Additional observations from a re-analysis of the deposited data

How the results depend on the processing

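Requiring a change of at least 1 on the log2 scale left 3 of the 9 members called in ABA minus CON and 4 of 9 in WR minus ABA. In WR minus CON, 0 of 2 remained called at an adjusted p under 0.01, 0 with that fold and 0 under the Benjamini-Yekutieli adjustment of the limma p-values. The adjusted p of *Dpp4* and *Anxa3* in ABA minus CON became 0.444 and 0.299 under Benjamini-Yekutieli, and those of *Pdgfra* and *Thy1* in WR minus CON 0.456 and 0.425. Over all settings, 103 results for single members kept direction and side of the threshold and 21 lost the call, with 0 reversed. Among the other 36 named genes the counts were 365, 44 and 0. Only the median centring altered a fold change, so the lack of reversals was all but fixed beforehand. A result not called at first could not lose a call under a stricter rule. These counts therefore do not measure stability. No call of a listed member changed on adjusting over the 13561 protein-coding genes alone or over the 15514 genes whose average log2 CPM was 0 or more. The same held after removing the median shift of 0.011 in WR minus ABA. Members missing from ABA minus CON or WR minus CON could not gain a call in these checks, because those comparisons list called genes alone. The larger SE for derived values moved no interval of the 9 members concerned across 0. It can only widen an interval, so the check bore on *Pdgfrb* and *Anxa3* alone, whose intervals lay above 0. Their larger SEs were 0.14 and 0.12, as in the main setting, and a derived SE that is too large would not be seen. No paired analysis was possible because the comparison tables carry no replicate numbers and the labels give each group numbers of its own. Leaving out each library in turn was not run, since only comparisons were used.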

Other observations

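Among genes outside the naming rule, chosen after their values were seen, some differed between WR and CON in families or lists of the surface markers. Of 15 interstitial progenitor genes 1 was higher and 1 lower, of 18 stromal genes 0 and 1, and of 27 relatives 1 and 2. Of all tested genes, 4.04% were higher and 3.18% lower, and counts this low cannot be read as more than that background. The values in brackets are log2 fold changes. *Mfap5*, which encodes a microfibril glycoprotein of interstitial progenitors, was 1.64-fold higher in WR than in CON (log2 0.71, SE 0.16, adjusted p = 0.0167), and *Opcml*, a lipid-anchored adhesion molecule of the same list, was 1.85-fold lower (log2 -0.89, SE 0.18, adjusted p = 0.0118). *Cd93*, a C-type lectin of endothelium related to *Cd248*, was 2.11-fold higher in WR than in CON (log2 1.08, SE 0.23, adjusted p = 0.0123). *Crispld2*, which shares a domain family with *Pi16*, was 1.54-fold lower (log2 -0.62, SE 0.17, adjusted p = 0.0345), and the annexin *Anxa4* was 1.20-fold lower (log2 -0.26, SE 0.07, adjusted p = 0.0279). *Fbln1*, which encodes the matrix protein fibulin-1, was 1.38-fold lower (log2 -0.47, SE 0.14, adjusted p = 0.0448). None of these 6 genes passed an adjusted p under 0.01 in WR minus CON. Nor did *Abcg1*, the 1 of 8 genes known for CD142+ stromal cells that was higher in this comparison (log2 0.78, SE 0.17, adjusted p = 0.0128). It was also 1.42-fold higher in ABA than in CON.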
